A study of Homo sapiens with 16 samples.

Results

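The genes at the end of the long arm of chromosome 11 (11q) were followed through stepwise selection of T24 bladder cancer cells with gemcitabine, a cytidine analog used as chemotherapy. The set was listed as 52 genes that start beyond 120 Mb on chromosome 11, and the stretch was chosen because its genes were jointly lower at late phase P15 than any other stretch. Of these names, 51 were found in the deposited table of 39007 genes, SRPR under its current symbol SRPRA, and GLB1L2 was not analysed here. A mean above 1 CPM over all libraries (CPM, the read count of a gene scaled to the total of its library) was reached by 42 of them, among 13227 genes in all.

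RNA was sequenced from the parental T24 line, an established line from a human urinary bladder carcinoma, at phase P0 (parental) and from its derivative GRC1 at phases P3 (early), P7 (intermediate) and P15 (late), with 4 libraries per phase. By the labels and the study's methods, all cells carried the T24 background and grew in the same serum-containing medium. The phases differ in how many rounds of gemcitabine exposure had been survived. GRC1 is a single derived line, and the labels do not say whether the libraries of a phase came from separate cultures, so that p-values measure only the spread between these libraries. Values are log2(CPM + 1) as deposited, and a difference is the difference of 2 phase means on that scale, with the standard error (SE) of a limma fit over all 16 libraries. Because P15 chose the genes, every difference of a member that involves P15 is given as a description with no test. Contrasts among P0, P3 and P7 were tested, although P0 may also have entered the choice.

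Genes of a chromosome end do not form a pathway. They share a stretch of DNA, its copies and its chromatin, and here they range from ETS transcription factors and cell adhesion proteins to a chaperone, a subunit of the enzyme that transfers glycans to nascent proteins, and a subunit of a condensin complex. The end of 11q is known from Jacobsen syndrome, in which it is deleted, and ETS1 and FLI1 are among its best studied genes. DNA was not measured in these samples, and in RNA from whole cultures fewer cells that express a gene and less RNA per cell cannot be told apart.

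The libraries held an estimated 33.7 to 50.1 M counts, so that 1 count equals 0.02 to 0.0297 CPM. The epithelial keratins KRT7, KRT8 and KRT18 averaged 957, 593 and 471 CPM at P0, whereas the urothelial genes UPK1B, UPK3A, KRT20, KRT5 and TP63 averaged below 0.1 CPM in all phases and UPK2 and UPK3B 0.293 to 0.84 CPM. Late phase P15 stood apart in some, but not all, of the other markers of the list. KRT7 averaged 11.5 CPM there, KRT8 70.3 CPM, and GATA3 1.43 CPM against 36.2 CPM at P0. KRT19 averaged 85.1 CPM at P0, 49.6 at P3, 12.3 at P7 and 0.0124 at P15. FOXA1 averaged 28.5 CPM at P0, 11.3 at P3, 7.8 at P7 and 3.26 at P15. PPARG averaged 16.8 CPM at P15 against 62.3 CPM at P0. KRT18 was higher at P15, at 633 CPM, as was UPK1A, at 1.98 CPM against 0.0749 CPM. The leukocyte genes PTPRC and CD3E and the fibroblast gene DCN averaged at most 0.0372 CPM in any phase. Of the other fibroblast and muscle genes listed, MYH11 averaged 0.4515 to 0.8509 CPM, PDGFRA up to 0.2452, LUM up to 0.1211 and DES up to 0.02856. CD14 averaged 6.81 CPM at P0, 1.95 at P3, 5.83 at P7 and 0.0577 at P15. In the endothelial gene CDH5 it was P0 that stood apart, at 5.69 CPM against 0.219 at P3, 0 at P7 and 0.132 at P15. PECAM1, also endothelial, averaged 0.936, 0.143, 0.444 and 0.619 CPM at P0, P3, P7 and P15. The part of these marker differences in the results for 11q was not tested. Nor was the identity of the P15 libraries as cells of the T24 line, on which every P15 difference given here depends.

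At late phase P15, most of the 11q genes stood at less than their former level. Their summed level was 8477 ± 86 CPM at P0 (SD, n = 4), 8356 ± 79 CPM at P3, 8090 ± 60 CPM at P7 and 3673 ± 35 CPM at P15. HSPA8 alone carried a large share of these reads, and without it the sums were 5033 ± 60, 4937 ± 25, 4954 ± 13 and 2224 ± 19 CPM. The median difference over the 42 genes was -1.12 for P15 against P0, -1.04 against P3 and -0.97 against P7, while the medians over all 13227 genes were 0.04, 0.05 and 0.06. In each of the P15 libraries the median gene lay 1.02 to 1.18 log2 units below its P0 mean, with values of -1.02, -1.18, -1.12 and -1.07.

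**Figure D1:**
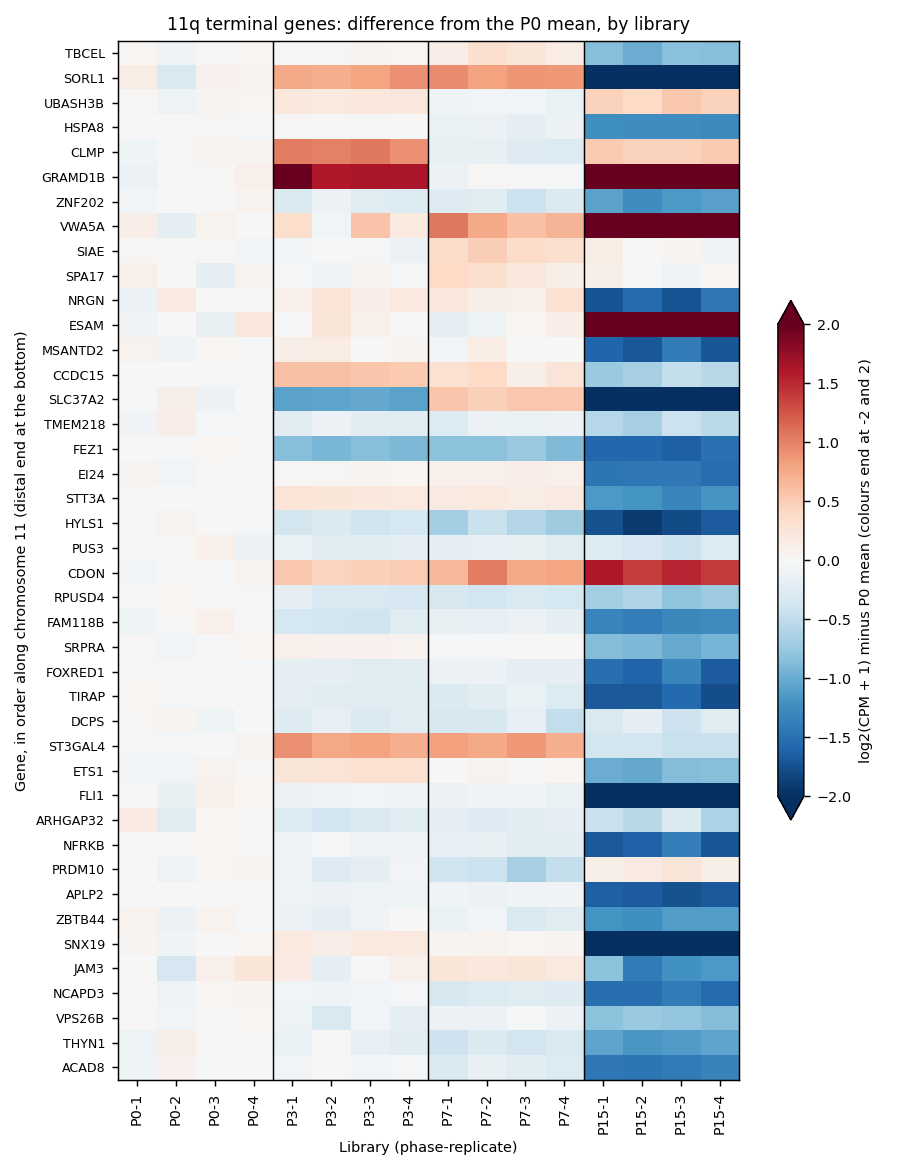
Difference of each library from the P0 mean of the same gene, in log2 units, for the 42 members (rows, in order along chromosome 11) and the 16 libraries (columns, 4 per phase). Blue covers most of the P15 columns, with 31 genes lower in all 4 P15 libraries than in all 12 others, and the red exceptions include GRAMD1B, ESAM, VWA5A and CDON.

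The difference was not shared by every member. All 4 P15 libraries lay below all 12 others for 31 of the 42 members, against a background of 29.4% of all genes tested, and above them for 6 members, against 34.1%. A difference of at least 1 log2 unit between P15 and P0 was found downward for 22 members, against 11.5% of all genes, and upward for 4 members, against 12.1%. These shares follow from the choice of the stretch and carry no test. The quartiles of the members were -1.55 and -0.35, and the whole range reached from -6.15 for SLC37A2 to 4.83 for GRAMD1B.

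Among P0, P3 and P7, no joint shift of this size appeared. The median difference was -0.04 for P3 against P0, -0.04 for P7 against P3 and -0.08 for P7 against P0, with medians over all genes of -0.03, 0.01 and -0.03. At an adjusted p below 0.05, 16 members were lower and 12 higher at P3 than at P0, and 14 passed in neither direction. The background was 37.3% lower and 31.4% higher over all genes. For P7 against P3, 13 members were lower and 8 higher, against backgrounds of 28.0% and 30.2%. For P7 against P0, 21 members were lower and 12 higher, against 34.2% and 27.9%. The first and last of these comparisons share the P0 libraries, and P0 may also have entered the choice of the genes. P7 against P3 uses no P0 or P15 library. Most of these differences were small. Of the members called, 7 moved by at least 0.5 log2 units at P3 (2 lower, 5 higher) and 4 between P3 and P7 (2 and 2). Over all 13227 genes, 1434 were lower and 1062 higher by as much at P3, and 539 and 797 between P3 and P7. Taken over both directions these are similar shares, while at P3 the share lower was smaller among the members than over all genes.

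Members that start side by side in opposite directions share the DNA between their starts. It is printed here, between RefSeq starts, for 3 pairs with unlike P15 differences from P0. SIAE and SPA17 start side by side only in RefSeq. In GENCODE, by which the genes were placed, SIAE extends past the start of SPA17. The stretches are RefSeq sequence of GRCh38.p14, plus strand, 5′ to 3′, with the GC box GGGCGG, or its reverse complement CCGCCC, in capitals.
SIAE and SPA17, chr11:124673740-124673903: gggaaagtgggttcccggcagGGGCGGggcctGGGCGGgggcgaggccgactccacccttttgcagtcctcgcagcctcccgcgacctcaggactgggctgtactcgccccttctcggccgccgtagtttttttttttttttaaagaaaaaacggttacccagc
RPUSD4 and FAM118B, chr11:126211651-126211781: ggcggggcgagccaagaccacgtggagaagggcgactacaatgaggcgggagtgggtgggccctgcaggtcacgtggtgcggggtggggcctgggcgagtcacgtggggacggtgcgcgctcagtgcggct
THYN1 and ACAD8, chr11:134253353-134253567: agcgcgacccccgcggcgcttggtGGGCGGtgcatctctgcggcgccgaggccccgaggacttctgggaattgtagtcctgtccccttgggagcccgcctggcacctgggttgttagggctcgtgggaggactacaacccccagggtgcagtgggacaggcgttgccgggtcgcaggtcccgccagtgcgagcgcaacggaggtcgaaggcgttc
The stretch between SIAE and SPA17 was 164 bases long with 2 GC boxes, that between RPUSD4 and FAM118B 131 bases with 0, and that between THYN1 and ACAD8 215 bases with 1. The GC box occurred in 80% of the 30 tested members with a promoter in the RefSeq table (250 bases before to 50 after the start), in 71.3% of 9714 promoters of tested genes and in 44.6% of all 27305 promoters. It was searched after the members' values were seen.

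SIAE, which removes acetyl groups from sialic acids, stood at 4.11, 4.09, 4.10 and 4.02 at P0, 4.02, 4.09, 4.06 and 3.97 at P3, 4.44, 4.57, 4.44 and 4.40 at P7, and 4.23, 4.09, 4.14 and 4.01 at P15. Its partner SPA17, first described as a sperm surface protein, stood at 2.69, 2.6, 2.41 and 2.65 at P0, 2.56, 2.49, 2.64 and 2.57 at P3, 2.98, 2.90, 2.81 and 2.71 at P7, and 2.70, 2.57, 2.51 and 2.62 at P15. The P15 libraries of both genes overlapped those of P0, with differences of 0.04 ± 0.06 and 0.01 ± 0.08 (SE). Both rose from P3 to P7, SIAE by 0.43, adjusted p = 8.6e-07, and SPA17 by 0.29, adjusted p = 0.0038. The exons of both genes overlap on opposite strands, and the strand setting of the counting is not stated, so that reads of the shared part cannot be told apart.

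RPUSD4, a mitochondrial pseudouridine synthase, stood at 5.70, 5.75, 5.71 and 5.69 at P0, 5.52, 5.41, 5.40 and 5.38 at P3, 5.39, 5.33, 5.40 and 5.36 at P7, and 5.04, 5.11, 4.91 and 4.98 at P15. FAM118B stood at 5.14, 5.26, 5.33 and 5.20 at P0, 4.88, 4.87, 4.83 and 4.99 at P3, 5.08, 5.07, 5.11 and 5.05 at P7, and 3.91, 3.85, 3.95 and 3.98 at P15. All P15 libraries of both genes lay below the others, with differences of -0.70 ± 0.04 for RPUSD4 and -1.31 ± 0.05 for FAM118B against P0. THYN1 stood at 5.80, 6.01, 5.92 and 5.86 at P0, 5.77, 5.89, 5.74 and 5.69 at P3, 5.49, 5.61, 5.52 and 5.60 at P7, and 4.84, 4.73, 4.77 and 4.84 at P15. ACAD8, an enzyme of valine breakdown, averaged 38.2 CPM at P0, 37.1 at P3, 32.4 at P7 and 13.9 at P15. Their P15 differences were -1.10 ± 0.05 and -1.40 ± 0.05, and both fell from P3 to P7 (THYN1 -0.22, adjusted p = 0.00065, ACAD8 -0.19, adjusted p = 0.0013). Another pair, SRPRA and FOXRED1, starts 120 bases apart in GENCODE and had P15 differences of -0.93 and -1.52.

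The transcription and chromatin factors of the stretch were lower at P15 with 1 exception. Of 7 tested, 6 had all P15 libraries below the others, against 29.4% of all genes. The median difference of the 7 against P0 was -1.16. Over all 42 members, which were chosen on this fall, the share was 73.8%, and counts by role carry no test. ETS1, an ETS-domain activator of invasion and matrix genes, stood at 8.78, 8.78, 8.90 and 8.85 at P0, 9.07, 9.09, 9.13 and 9.13 at P3, 8.84, 8.90, 8.83 and 8.86 at P7, and 7.84, 7.81, 7.96 and 7.97 at P15. Expression rose at P3 (0.28, adjusted p = 3.7e-07), fell from P3 to P7 (-0.25, adjusted p = 3.4e-06) and was lower at P15 with no overlap (-0.93 ± 0.04 against P0). FLI1, the neighbouring ETS factor known from blood vessel and platelet development, stood at 6.38, 6.22, 6.47 and 6.41 at P0, 6.26, 6.27, 6.31 and 6.29 at P3, 6.25, 6.28, 6.30 and 6.24 at P7, and 3.19, 3.15, 3.21 and 3.16 at P15. Its P15 libraries lay close together and far below the other 12, at 8.05 CPM against 81.9 CPM at P0, a difference of -3.19 ± 0.04. From P3 to P7 FLI1 differed by -0.02, adjusted p = 0.79.

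NFRKB, a subunit of the INO80 chromatin remodeller, averaged 66.1 CPM at P0, 62.8 at P3, 58.0 at P7 and 21.3 at P15, with a P15 difference of -1.60 ± 0.05 against P0. It was lower at P7 than at P0 (-0.19, adjusted p = 0.004). ZBTB44, a zinc finger protein, averaged 60.9 CPM at P0, 56.7 at P3, 53.4 at P7 and 26.6 at P15 and differed by -1.16 ± 0.05 at P15. The zinc finger protein ZNF202 averaged 24.5 CPM at P0, 20.8 at P3, 19.7 at P7 and 10.6 at P15 and differed by -1.14 ± 0.06 at P15, after a fall at P3 (-0.23, adjusted p = 0.0013). MSANTD2 averaged 11.4 CPM at P0, 12.2 at P3, 11.7 at P7 and 3.12 at P15, passed no test between the earlier phases, and differed by -1.60 ± 0.07 at P15, or by -1.02 with 5 added before the logarithm in place of 1. PRDM10, a zinc finger factor of the PRDM family, was the exception. It stood at 4.70, 4.60, 4.74 and 4.75 at P0, 4.63, 4.44, 4.52 and 4.65 at P3, 4.30, 4.27, 4.04 and 4.22 at P7, and 4.81, 4.87, 4.94 and 4.81 at P15. It fell from P3 to P7 (-0.35, adjusted p = 3e-05), and its P15 libraries lay above all others, 0.16 ± 0.06 over P0.

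Since ETS1 and FLI1 both bind a GGAA core, the promoters were searched for CCGGAAG on either strand (reverse complement CTTCCGG). It was found in 3 of the 30 member promoters (10%), TBCEL, ZNF202 and MSANTD2, in 19.9% of the 9714 promoters of tested genes and in 10.7% of all 27305. The median P15 difference was -1.14 for the 3 members with the motif and -1.10 for those without. The last 120 bases before the start of both members that hold it upstream are printed 5′ to 3′ on the strand of the gene, the minus strand, with the motif in capitals.
ZNF202, chr11:123741661-123741780: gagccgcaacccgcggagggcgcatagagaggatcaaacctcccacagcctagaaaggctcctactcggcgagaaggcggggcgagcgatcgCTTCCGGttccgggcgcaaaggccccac
MSANTD2, chr11:124800407-124800526: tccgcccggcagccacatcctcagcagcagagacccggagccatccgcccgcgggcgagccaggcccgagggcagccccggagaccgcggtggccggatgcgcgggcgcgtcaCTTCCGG
Both matches lie close to the start, and a match is no evidence of binding.

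The members listed here under the endoplasmic reticulum, folding, glycan transfer and sorting formed the largest group, with 12 tested. All P15 libraries lay below the others for 10 of them, against 29.4% of all genes, and the median difference against P0 was -1.07. HSPA8, the constitutive cytosolic chaperone of the HSP70 family, stood at 11.74, 11.76, 11.78 and 11.72 at P0, 11.77, 11.71, 11.73 and 11.75 at P3, 11.61, 11.64, 11.57 and 11.64 at P7, and 10.53, 10.50, 10.50 and 10.48 at P15. It averaged 3444 CPM at P0 and 1449.8 CPM at P15, a difference of -1.25 ± 0.03, and had already fallen slightly from P3 to P7 (-0.13, adjusted p = 0.001). STT3A, a catalytic subunit of the oligosaccharyltransferase that attaches N-glycans during translocation, stood at 8.77, 8.79, 8.80 and 8.77 at P0, 9.06, 9.02, 9.0 and 8.97 at P3, 8.96, 8.98, 8.93 and 8.96 at P7, and 7.63, 7.59, 7.47 and 7.60 at P15. STT3A rose at P3 (0.23, adjusted p = 7.7e-07) and was lower at P15 (-1.21 ± 0.03 against P0). SRPRA, the receptor subunit that docks the signal recognition particle at the endoplasmic reticulum, averaged 274 CPM at P0, 291 at P3, 270.1 at P7 and 144 at P15, a P15 difference of -0.93 ± 0.03. EI24, a membrane protein of the endoplasmic reticulum, averaged 259.6 CPM at P0, 266 at P3, 279.6 at P7 and 93.9 at P15, with a P15 difference of -1.46 ± 0.03.

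Of the 4 members with the lowest P15 difference from P0, 3 were in this group, the other being FLI1. SLC37A2, a sugar phosphate exchanger, stood at 7.77, 7.87, 7.63 and 7.75 at P0, 6.68, 6.70, 6.73 and 6.68 at P3, 8.31, 8.23, 8.30 and 8.30 at P7, and 1.48, 1.54, 1.90 and 1.52 at P15. It fell at P3 (-1.06, adjusted p = 5.1e-13), rose from P3 to P7 (1.59, adjusted p = 8.5e-16) and averaged 2.07 CPM at P15 against 311 CPM at P7, a difference of -6.15 ± 0.06 against P0. SORL1, a sorting receptor of the trans-Golgi and endosomes, stood at 4.51, 4.05, 4.45 and 4.43 at P0, 5.12, 5.08, 5.15 and 5.27 at P3, 5.30, 5.16, 5.25 and 5.23 at P7, and 1.24, 1.08, 1.08 and 1.14 at P15. SORL1 rose at P3 (0.80, adjusted p = 3.6e-09), did not pass the test between P3 and P7 (0.08, adjusted p = 0.4) and differed by -3.23 ± 0.08 at P15 against P0. At its low P15 level this difference was -3.92 with 0.1 added before the logarithm in place of 1, and -1.99 with 5. SNX19, a sorting nexin, stood at 7.17, 7.05, 7.11 and 7.16 at P0, 7.31, 7.26, 7.31 and 7.32 at P3, 7.18, 7.19, 7.16 and 7.17 at P7, and 4.72, 4.73, 4.93 and 4.68 at P15. Its P15 difference was -2.36 ± 0.04, with no overlap. In all 3 genes the highest P15 library lay more than 2 log2 units below the lowest library of any other phase.

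The remaining members of the group moved less or the other way. VPS26B, a retromer subunit, averaged 58.7 CPM at P0, 52.5 at P3, 55.2 at P7 and 33.2 at P15, with a P15 difference of -0.81 ± 0.05. TMEM218 averaged 21.7 CPM at P0, 18.7 at P3, 19.3 at P7 and 14.6 at P15, with a P15 difference of -0.55 ± 0.06. ST3GAL4, which adds sialic acid to galactose, stood at 5.06, 5.04, 5.09 and 5.13 at P0, 5.99, 5.85, 5.89 and 5.81 at P3, 5.90, 5.83, 5.94 and 5.81 at P7, and 4.71, 4.71, 4.63 and 4.63 at P15. It rose at P3 (0.81, adjusted p = 1e-13) and stood above P0 at P7 as well (0.79, adjusted p = 1.9e-13), and P15 lay below all of them, -0.41 ± 0.04 against P0. GRAMD1B, which moves cholesterol from the plasma membrane to the endoplasmic reticulum, stood at 1.43, 1.52, 1.57 and 1.64 at P0, 3.51, 3.14, 3.18 and 3.18 at P3, 1.43, 1.57, 1.51 and 1.52 at P7, and 6.34, 6.36, 6.47 and 6.30 at P15. GRAMD1B rose at P3 (1.71, adjusted p = 2.9e-15), fell from P3 to P7 (-1.75, adjusted p = 6.2e-15), where it differed from P0 by -0.03, adjusted p = 0.74, and stood 4.83 ± 0.08 above P0 at P15. With 5 added before the logarithm, its rise at P3 was 0.97 and its fall from P3 to P7 -0.98.

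**Figure D2:**
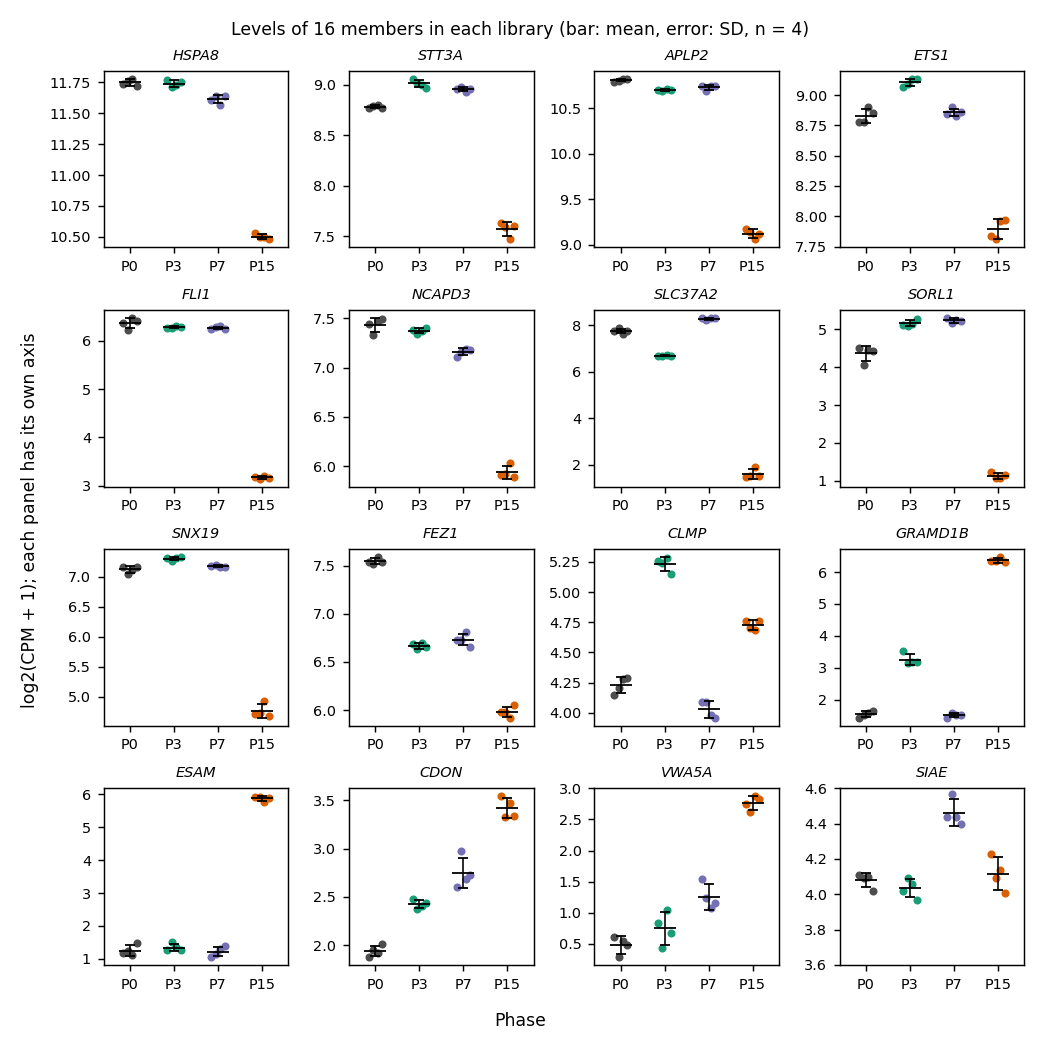
Levels of 16 members as log2(CPM + 1) in each library (points), by phase, with the mean (bar) and SD of 4 libraries (error bars); each panel has its own axis, which does not start at 0. The first 10 genes have all P15 points below all others, and GRAMD1B, ESAM, CDON and VWA5A have them above, while the P15 points of CLMP lie between P3 and P0 and those of SIAE overlap P0.

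Adhesion and cell surface genes split. Of 5 tested, 2 had all P15 libraries below the others, 2 above, and 1 in between. Over all genes the shares were 29.4% below and 34.1% above. APLP2, a membrane protein of the amyloid precursor family, stood at 10.79, 10.80, 10.82 and 10.82 at P0, 10.70, 10.69, 10.71 and 10.70 at P3, 10.74, 10.69, 10.74 and 10.74 at P7, and 9.17, 9.14, 9.06 and 9.12 at P15. It averaged 1791 CPM at P0 and 557 CPM at P15, a difference of -1.69 ± 0.03, and from P3 to P7 it differed by 0.03, adjusted p = 0.42. JAM3, a junctional adhesion molecule, averaged 1.99 CPM at P0, 2.02 at P3, 2.45 at P7 and 0.351 at P15, with a P15 difference of -1.15 ± 0.12, and passed no test between the earlier phases. With 0.1 and 5 added before the logarithm its P15 difference was -2.33 and -0.38. CLMP, an adhesion molecule related to the coxsackie and adenovirus receptor, stood at 4.15, 4.21, 4.28 and 4.29 at P0, 5.26, 5.24, 5.28 and 5.15 at P3, 4.09, 4.09, 3.98 and 3.96 at P7, and 4.76, 4.70, 4.69 and 4.76 at P15. CLMP rose at P3 (1.00, adjusted p = 2e-14) and fell from P3 to P7 (-1.20, adjusted p = 1.9e-15), and its P15 libraries lay between those of P0 and P3, 0.50 ± 0.05 over P0.

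ESAM, an adhesion molecule named for its expression in endothelial cells, stood at 1.18, 1.25, 1.11 and 1.48 at P0, 1.26, 1.5, 1.35 and 1.26 at P3, 1.06, 1.16, 1.29 and 1.38 at P7, and 5.91, 5.92, 5.78 and 5.89 at P15. None of the contrasts among P0, P3 and P7 passed the test, and P15 stood 4.62 ± 0.09 above P0, at 57.7 CPM against 1.4 CPM. CDON, a co-receptor of Hedgehog ligands, stood at 1.88, 1.95, 1.92 and 2.01 at P0, 2.48, 2.38, 2.41 and 2.44 at P3, 2.6, 2.97, 2.69 and 2.73 at P7, and 3.54, 3.33, 3.47 and 3.34 at P15. It rose at P3 (0.49, adjusted p = 1.1e-05) and again at P7 (0.32, adjusted p = 0.0015), and P15 stood 1.48 ± 0.08 above P0. With 0.1 added before the logarithm in place of 1 the P15 difference was 1.74, and with 5 it was 0.91.

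The mean of each of the 5 tested enzymes of RNA and mitochondria was lower at P15 than at P0, with a median difference of -0.70 and a range from -1.52 to -0.29. FOXRED1, an assembly factor of respiratory complex I, stood at 6.25, 6.23, 6.22 and 6.20 at P0, 6.04, 6.05, 5.99 and 6.01 at P3, 6.10, 6.11, 6.03 and 6.05 at P7, and 4.71, 4.62, 4.92 and 4.56 at P15. It fell slightly at P3 (-0.20, adjusted p = 0.0015) and differed by -1.52 ± 0.05 at P15. PUS3, a transfer RNA pseudouridine synthase, stood at 4.06, 4.10, 4.17 and 3.95 at P0, 3.93, 3.84, 3.84 and 3.88 at P3, 3.89, 3.91, 3.92 and 3.83 at P7, and 3.79, 3.73, 3.64 and 3.79 at P15. Its P15 libraries lay just below all others, -0.33 ± 0.06 from P0, of which a part was already present at P3 (-0.20, adjusted p = 0.0048). DCPS, the scavenger decapping enzyme, stood at 4.76, 4.78, 4.65 and 4.73 at P0, 4.47, 4.57, 4.44 and 4.48 at P3, 4.41, 4.41, 4.57 and 4.24 at P7, and 4.42, 4.54, 4.31 and 4.48 at P15. DCPS fell at P3 (-0.24, adjusted p = 0.0017), and its P15 libraries overlapped those of P3 and P7, -0.29 ± 0.06 from P0. All 5 genes were lower at P7 than at P0 at an adjusted p below 0.05, against 34.2% of all genes and 21 of the 42 members. P0 may also have entered the choice of the members.

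Among 4 signalling members, 2 had all P15 libraries below the others, against 29.4% of all genes. UBASH3B, a phosphatase that acts on receptor tyrosine kinase signalling, stood at 7.56, 7.43, 7.59 and 7.57 at P0, 7.75, 7.73, 7.75 and 7.76 at P3, 7.46, 7.48, 7.48 and 7.41 at P7, and 8.0, 7.93, 8.08 and 8.0 at P15. It rose at P3 (0.21, adjusted p = 1.3e-05), fell from P3 to P7 (-0.29, adjusted p = 2.3e-07) and stood above all other libraries at P15, 0.47 ± 0.04 over P0. ARHGAP32, a GTPase-activating protein, stood at 5.47, 5.07, 5.35 and 5.33 at P0, 5.03, 4.92, 5.02 and 5.06 at P3, 5.11, 5.05, 5.08 and 5.11 at P7, and 4.86, 4.75, 5.02 and 4.67 at P15. Its P15 libraries reached into the range of P3, -0.48 ± 0.07 from P0. NRGN, a calmodulin-binding protein of neurons, averaged 24.4 CPM at P0, 27.6 at P3, 27.8 at P7 and 7.35 at P15, with a P15 difference of -1.61 ± 0.07. TIRAP, an adaptor of Toll-like receptors, averaged 9.91 CPM at P0, 8.35 at P3, 8.33 at P7 and 2.43 at P15, with a P15 difference of -1.67 ± 0.07, or -1.0 with 5 added before the logarithm in place of 1, and a fall at P3 (-0.22, adjusted p = 0.0051).

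Genes of cell division, the centrosome and the cytoskeleton were lower at P15 in 5 of 6 cases without overlap, SPA17 being the sixth. The share over all genes was 29.4%. NCAPD3, a subunit of condensin II, which compacts chromosomes for mitosis, stood at 7.44, 7.33, 7.47 and 7.49 at P0, 7.38, 7.34, 7.37 and 7.40 at P3, 7.11, 7.16, 7.19 and 7.18 at P7, and 5.91, 5.92, 6.03 and 5.89 at P15. It fell from P3 to P7 (-0.21, adjusted p = 3.1e-05) and differed by -1.5 ± 0.04 at P15 against P0. FEZ1, an adaptor of kinesin transport, stood at 7.54, 7.52, 7.59 and 7.54 at P0, 6.69, 6.63, 6.70 and 6.65 at P3, 6.73, 6.73, 6.81 and 6.66 at P7, and 5.98, 5.98, 5.92 and 6.05 at P15. FEZ1 fell at P3 (-0.88, adjusted p = 2.2e-16), differed little between P3 and P7 (0.07, adjusted p = 0.12), and P15 lay below both, -1.57 ± 0.04 from P0. HYLS1, a centriole protein, averaged 42.9 CPM at P0, 33.4 at P3, 28.0 at P7 and 11.8 at P15. It fell at P3 (-0.35, adjusted p = 1.3e-05) and again at P7 (-0.25, adjusted p = 0.00075), and differed by -1.78 ± 0.06 at P15. TBCEL, a tubulin-binding protein, averaged 37.2 CPM at P0, 38.1 at P3, 43.2 at P7 and 19.7 at P15, with a P15 difference of -0.89 ± 0.05. CCDC15 averaged 13.9 CPM at P0, 21.0 at P3, 17.0 at P7 and 8.82 at P15, rose at P3 (0.56, adjusted p = 6.3e-08) and differed by -0.61 ± 0.07 at P15.

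VWA5A stood at 0.61, 0.29, 0.55 and 0.48 at P0, 0.84, 0.43, 1.05 and 0.67 at P3, 1.54, 1.24, 1.07 and 1.16 at P7, and 2.74, 2.62, 2.87 and 2.82 at P15. It rose from P3 to P7 (0.51, adjusted p = 0.0011), and P15 lay above all others, 2.28 ± 0.12 over P0, at 5.8 CPM against 0.402 CPM. Its levels at P0 are so low that the difference depends on the value added before the logarithm. With 0.1 in place of 1 it was 3.59, and with 5 it was 1.00. It was 1 of 6 members, with SORL1, CDON, JAM3, MSANTD2 and TIRAP, whose P15 difference of at least 1 log2 unit moved by more than 1.5 times with that value.

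The 9 further members did not reach a mean of 1 CPM and were not tested. GRIK4, a kainate receptor subunit, stood at 0.24, 0.35, 0.27 and 0.08 at P0, 0.86, 0.85, 0.96 and 1.07 at P3, 1.93, 1.86, 1.75 and 2.02 at P7, and 0.14, 0.10, 0.35 and 0.00 at P15. Its P7 libraries lay above those of every other phase, and its P15 libraries overlapped P0. ST14, the membrane serine protease matriptase, averaged 0.687 CPM at P0, 0.433 CPM at P3 and 0.275 CPM at P7, and was listed at 0 in all P15 libraries. VSIG2 averaged 0.315 CPM at P0, 0.73 at P3, 0.644 at P7 and 0.161 at P15, and NTM, a neural adhesion molecule, 0.0691 CPM at P0, 0.0766 at P3, 0.072 at P7 and 0.247 at P15. The P15 libraries lay below all others for VSIG2 and above all others for NTM, and all P3 libraries of VSIG2 lay above those of P0. PKNOX2, DDX25, OPCML, IGSF9B and GLB1L3 stayed at or below a phase mean of 0.238 CPM throughout.

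The stretch from 120 Mb also held 13 tested genes that were not on the list. Their median P15 difference was -0.59, and all P15 libraries lay below the others for 8 of them, against 29.4% of all genes. OAF (-1.66), ARHGEF12 (-1.06), TBRG1 (-1.21), SENCR (-1.45) and ROBO4 (-2.32), a receptor of the Roundabout family, were at least 1 log2 unit lower at P15 than at P0. CHEK1 (-0.59), the checkpoint kinase of the replication stress response, C11orf45 (-0.78), SC5D (-0.35), TMEM136 (-0.26) and ST3GAL4-AS1 (-0.06) were lower by less. ROBO3 (1.41), MIR100HG (0.94) and C11orf63 (0.29) were higher. With them, the median over all 55 tested genes of the stretch was -0.93.

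At the 120 Mb edge, differences of either sign and size lay side by side. The 3 tested genes before it were RNF26 (-0.20), USP2-AS1 (1.63) and NECTIN1 (-0.28). The first tested inside it were OAF (-1.66), TMEM136 (-0.26) and ARHGEF12 (-1.06), with TBCEL (-0.89) as the first tested member. With each gene placed by the lower of its end coordinates, the member medians from there were -0.89 between 120 and 124 Mb (7 genes, 3 of them higher at P15), -0.61 between 124 and 126 Mb (15 genes, 5 higher), -0.93 between 126 and 130 Mb (12 genes, 1 higher) and -1.28 beyond 130 Mb (8 genes, 0 higher). All 4 members that stood more than 1 log2 unit above P0 were placed before 126 Mb, although CDON, on the minus strand, reaches past it, and PRDM10 (0.16) likewise reaches past 130 Mb. The 8 genes beyond 130 Mb, from APLP2 to ACAD8, ranged from -2.36 to -0.81. Across the 42 members, Pearson's r between the position of the gene and its P15 difference was -0.20 and Spearman's rank correlation was -0.25. For the mean level over P0, P3 and P7 in place of position they were -0.53 and -0.49, where P0 enters both measures. The genes share the same 16 libraries and are not independent.

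**Figure D3:**
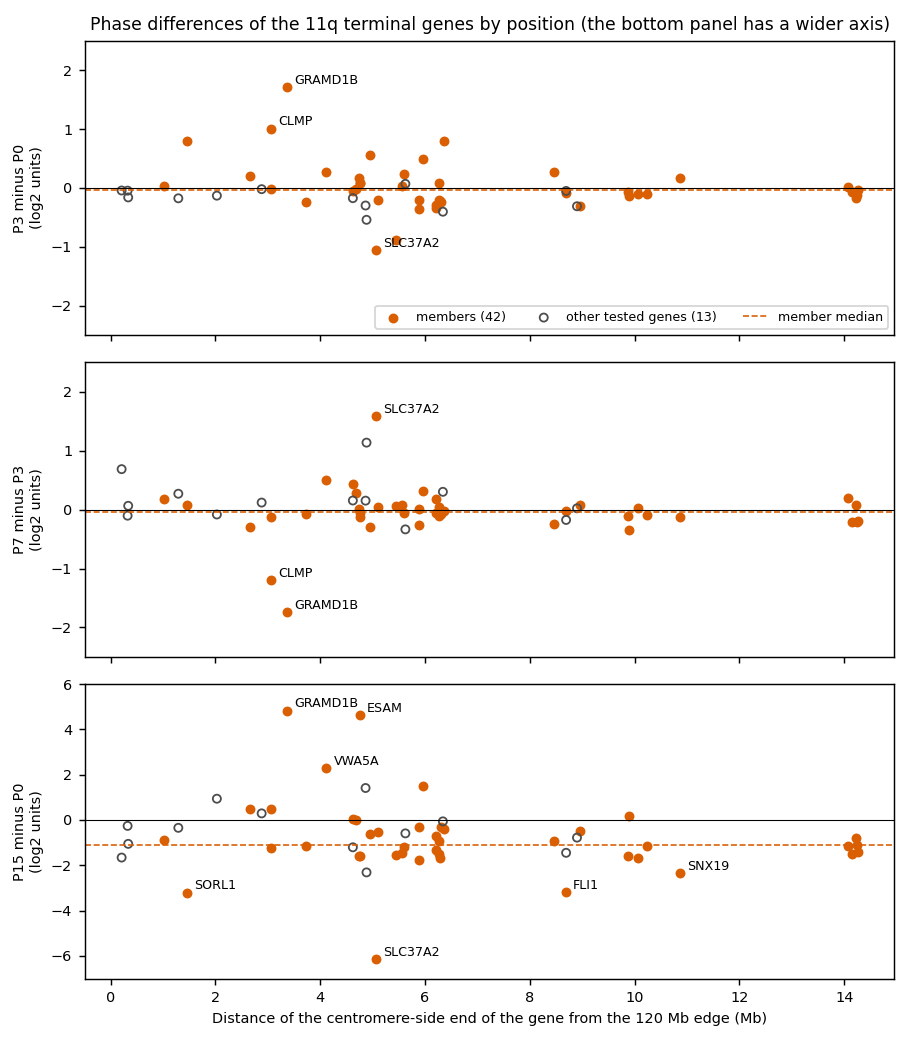
Difference between phases in log2 units for the 42 members (filled) and the 13 other tested genes of the stretch (open), by distance from the 120 Mb edge; the dashed line is the member median and the bottom panel has a wider axis. The upper panels centre on 0 (medians -0.04 and -0.04), the lower one on -1.12, and its positive outliers GRAMD1B, ESAM and VWA5A lie within 5 Mb of the edge.

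Chromosome 11 as a whole stood below the other chromosomes at P15. The median P15 difference of its 722 tested genes was -0.53, the lowest of 23 chromosomes. The 667 genes before 120 Mb had a median of -0.51. All P15 libraries lay below the others for 57.1% of these 667, against 29.4% of all genes. In windows of 10 Mb with at least 10 genes, 12 of 13 windows of chromosome 11 had a negative median. The window from 100 to 110 Mb was the exception (0.24), and that from 110 to 120 Mb had a median of -0.30, before -0.78 from 120 to 130 Mb. None of 291 such windows of the genome had a median below the -0.93 of the whole stretch from 120 Mb (0 windows), a rank that follows from the choice of the stretch and carries no test. The lowest were those at 150 to 160 Mb of chromosome X (-0.90) and at 110 to 120 Mb of chromosome 10 (-0.86). With windows of 5 Mb, 1 of 437 lay below it, from 40 to 45 Mb of chromosome 11 (-1.08, 11 genes).

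**Figure D4:**
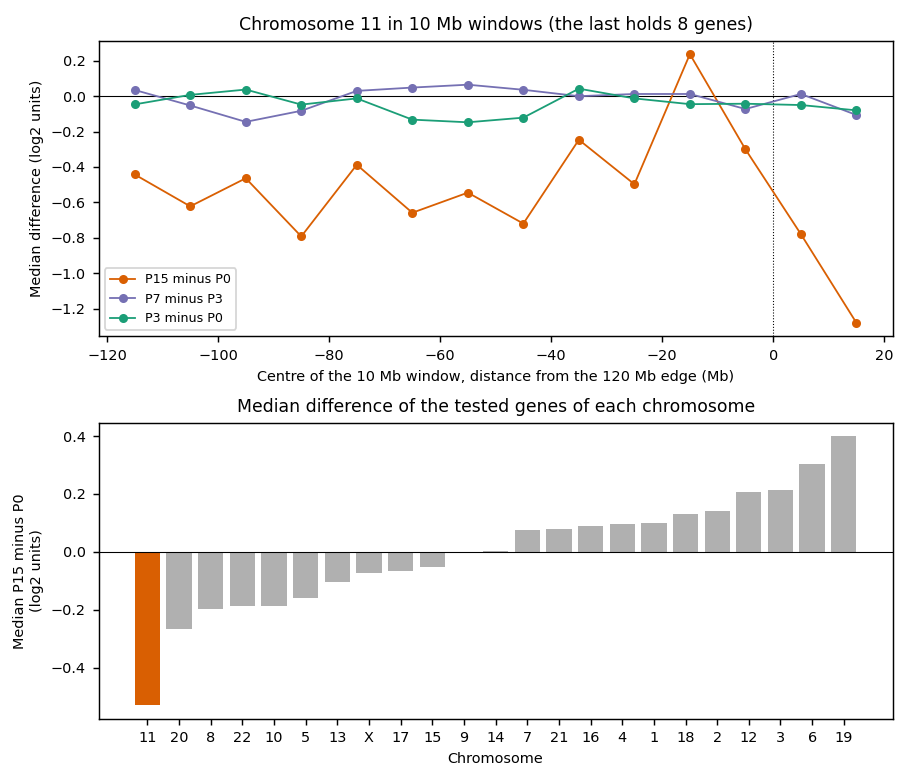
Top, median difference in log2 units of the tested genes in 10 Mb windows of chromosome 11, by distance of the window centre from the 120 Mb edge (dotted line), for 3 pairs of phases. Bottom, median P15 minus P0 of each chromosome, with chromosome 11 in orange at -0.53. The P15 line is negative in all windows but the one at 100 to 110 Mb and lowest in the last, at -1.28 over 8 genes, while the other lines stay near 0.

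Reads of some members can be shared with a neighbour. Exons of 20 of the 42 members overlapped an exon of another annotated gene on either strand, in 8 cases that of another member, such as NCAPD3 with VPS26B and JAM3, or SRPRA with FAM118B and FOXRED1, and in others that of a gene outside the list, such as FLI1 with SENCR and STT3A with CHEK1. The other 22 members had a median P15 difference of -0.82, and 17 of them were lower at P15 than at P0. All P15 libraries lay below the others for 16 of the 22, against 29.4% of all genes. This split was made after the values were seen.

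Partners of the members that lie on other parts of the genome were not chosen by the rule and were tested at P15 against P0. Of 75 listed, 73 were tested. In all, 32 were lower, 24 higher and 17 passed in neither direction, with a median difference of -0.04, against a background of 40.9% lower and 45.3% higher over all genes. EHF, an ETS factor, is itself on chromosome 11. The partners given by name were chosen after their values were seen.

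The partners of a member did not all move the same way. The background of 40.9% lower and 45.3% higher applies to each list that follows, and no list was tested against it. For STT3A, the paralogous catalytic subunit STT3B rose (0.64 ± 0.03, adjusted p = 2.4e-15), as did the shared subunits RPN2 (0.40 ± 0.03, adjusted p = 3.1e-13) and DDOST (0.40 ± 0.03, adjusted p = 4.2e-12). Only OST4 fell among the 9 oligosaccharyltransferase partners (-0.65 ± 0.06, adjusted p = 1.1e-10), and 5 did not pass. For SRPRA, 5 of 7 partners fell and 0 rose, with SRP14 at -0.66 ± 0.03, adjusted p = 6e-15 and SRP19 at -0.71 ± 0.07, adjusted p = 5.9e-10, while its direct partner SRPRB did not pass (-0.04 ± 0.04, adjusted p = 0.37). For VPS26B, its paralog VPS26A fell (-0.84 ± 0.03, adjusted p = 3.1e-17) together with VPS35 (-0.48 ± 0.04, adjusted p = 5e-12), and VPS29 did not pass (0.02 ± 0.04, adjusted p = 0.65). For NCAPD3, 3 of 4 condensin subunits fell, NCAPH2 most (-0.54 ± 0.04, adjusted p = 3.5e-11), and NCAPG2, a subunit of condensin II, rose (0.28 ± 0.04, adjusted p = 1.4e-07).

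In the HSP70 system of HSPA8, 6 of 10 listed genes fell and 2 rose. DNAJA1, a cochaperone of HSPA8, had a level of 9.05 ± 0.06 at P0 (SD, n = 4) and 7.23 ± 0.05 at P15 (-1.82 ± 0.03, adjusted p = 7.7e-24), and the nucleotide exchange factor BAG1 also fell (-1.63 ± 0.04, adjusted p = 2.9e-21). DNAJA1 and BAG1 both lie on chromosome 9, as does HSPA5. HSPA5, the HSP70 of the endoplasmic reticulum, rose (1.28 ± 0.06, adjusted p = 1.6e-16), as did the mitochondrial HSPA9 (0.38 ± 0.03, adjusted p = 1.4e-11). Among 15 tested ETS factors other than ETS1 and FLI1, 5 fell and 7 rose. ETV6 (-1.58 ± 0.05, adjusted p = 6.7e-19) and ELF1 (-1.15 ± 0.05, adjusted p = 2.5e-17) fell, and ELK3 (0.91 ± 0.03, adjusted p = 2.3e-18) and ETS2 (0.76 ± 0.04, adjusted p = 1.6e-15) rose. APLP1, a paralog of APLP2, stood at 2.48 ± 0.16 at P0 and 5.92 ± 0.10 at P15 (3.44 ± 0.08, adjusted p = 7.3e-22), and APP rose by less (0.20 ± 0.03, adjusted p = 8.6e-07).

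The partners lowered most were TLR4 and SPINT1. TLR4, for which TIRAP is an adaptor, stood at 6.18 ± 0.05 at P0, 6.20 ± 0.03 at P3, 5.95 ± 0.06 at P7 and 0.085 at P15 (-6.10 ± 0.05, adjusted p = 7.9e-32). MYD88, the adaptor that acts with TIRAP, fell as well (-1.72 ± 0.05, adjusted p = 4.2e-20), and of the 5 partners of TIRAP 4 fell and 1 rose. SPINT1, an inhibitor of matriptase, fell from 5.44 ± 0.05 to 2.18 ± 0.13 (-3.26 ± 0.06, adjusted p = 1.2e-23), whereas SPINT2 was slightly higher (0.10 ± 0.04, adjusted p = 0.024). JAM2, a paralog of JAM3, rose (2.63 ± 0.09, adjusted p = 2.7e-18), and F11R did not pass (-0.09 ± 0.05, adjusted p = 0.13). Of the INO80 subunits listed with NFRKB, RUVBL2 rose most (1.18 ± 0.04, adjusted p = 1.4e-18), 3 of 7 rose in all, and INO80 fell (-0.16 ± 0.06, adjusted p = 0.011). Among the pseudouridine synthases listed with PUS3 and RPUSD4, 4 of 7 fell, RPUSD1 most (-1.90 ± 0.07, adjusted p = 1.6e-18), and 3 rose.

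**Figure D5:**
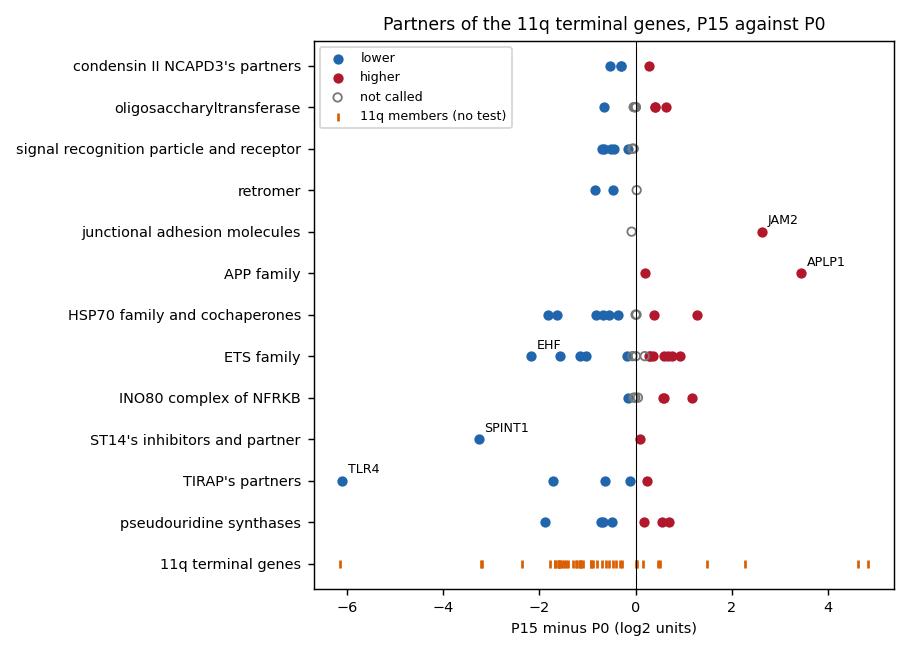
Difference between P15 and P0 in log2 units for 73 partners of the members, by list (rows), with genes lower in blue, higher in red and not passing an adjusted p of 0.05 as open grey circles; the last row shows the 42 members, with no test. Partners fall on both sides of 0 (median -0.04), with TLR4 at -6.10 and APLP1 at 3.44 as the extremes, while 33 of the 42 members lie below 0.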

How the data were processed

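RNA-sequencing values of 16 T24 and GRC1 libraries were used. Per the study's methods, the authors aligned reads to GRCh38 with STAR 2.6.1a and counted genes with featureCounts. The deposited values are log2 of CPM plus 1, rounded to 2 decimals. The study's methods also describe quantile normalization and centering on the median. The deposited values are not centered, with library medians of 4.85 to 4.93 over the tested genes. The strand setting and the treatment of reads with several matches are not given in the sources used here. Depth was read off the step between the lowest values of each library, which give 1 count.

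The members, role lists and partner lists were chosen with earlier results of these data known. Genes with a mean above 1 CPM were tested with limma (version 3.58.1, R 4.3.3) in a model of the 4 phases over all libraries, using a variance prior that follows the mean, and p-values were adjusted by Benjamini-Hochberg over 13227 genes. Of the table, 27 rows named as dates were left out. The fit was tested on simulated data. Genes were placed with GENCODE version 44, which matched 94.9% of the tested symbols, and tables and figures were made in Python with pandas 2.3.3 and matplotlib 3.10.9. Values in every library are given for the 2 members of each role with the highest mean CPM, the 4 lowest and 4 least lowered at P15, those higher at P15, and those called between P7 and P3 with at least 0.5 log2 units. Every other member is given with its means. Replicate numbers do not pair the libraries. The alternatives were pseudocounts, filters, scalings, blocks, the variance prior, the libraries fitted, a fold rule, libraries left out and window size.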

Additional observations from a re-analysis of the deposited data

Results flagged for a closer look

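Single libraries stood apart from the other 3 of their phase for 11 of 168 combinations of member and phase, by the ratio of a gap to the range, where chance flags about 1 in 20, or 8.4 here. The ratio was 0.83 for TBCEL in P0 replicate 2 and 0.88 in P15 replicate 2 (both lower), 0.89 for GRAMD1B in P3 replicate 1 (higher), and 0.83 for CCDC15 in P0 replicate 3 (lower). For SLC37A2 it was 0.88 in P7 replicate 2 (lower) and 0.86 in P15 replicate 3 (higher, at 1.90 against 1.48 to 1.54 in the others). For TMEM218 it was 0.91 in P3 replicate 2 (higher) and 0.93 in P7 replicate 1 (lower). SNX19 had 0.83 in P3 replicate 2 (lower). The ratio of 1.0 for APLP2 in P7 replicate 2 (lower) and for VPS26B in P7 replicate 3 (higher) comes from 3 equal values among rounded numbers. The flags fell on 9 libraries, with at most 2 in any of them.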

How the results depend on the processing

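Of 421 recomputed counts and medians, 403 kept their direction and size. With a call that also needed 1 log2 unit, members lower and higher were 1 and 2 for P3 against P0, 2 and 1 for P7 against P3, and 0 and 0 for P7 against P0, and partners 10 and 4 for P15 against P0, since the rule is stricter. With no filter on low values, which adds members near 0, the median was -0.02 for P3 against P0, -0.81 for P15 against P0, -0.91 against P3 and -0.83 against P7. With a pseudocount of 5, which shrinks differences of low genes, the last 3 were -0.92, -0.87 and -0.86. Quantile normalization gave -0.021 for P3 against P0, the cause of which was not tested. With only the 22 members without an exon overlap, chosen after seeing the data, the median for P15 against P0 was -0.82. With each library left out in turn, the median for P7 against P0 ranged from -0.112 to -0.075. Of 804 values of named members, 18 moved by more than the spread and 0 reversed. With a replicate block, 15 members were lower and 13 higher for P3 against P0, 13 and 8 for P7 against P3, and 22 and 12 for P7 against P0. The numbers do not pair the libraries, with correlations of -0.15 to 0.22, and the numbers in the sample titles differ for 14 libraries. Depth limits the 9 members under 1 CPM most, since 1 count is up to 0.0297 CPM.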
